A study of Mus musculus with 14 samples.

Results

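The amino acid transporter families were followed in SCp2 cells, a mouse mammary epithelial line, kept with or without the secreted protease MMP-3. The members were the 63 genes, of 18193 with a named probe set, whose symbol in the platform annotation begins with Slc1a, Slc3a, Slc6a, Slc7a, Slc36a, Slc38a or Slc43a. The rule uses gene names and no measured value, and a gene with several probe sets is given by the one that varied most (largest standard deviation, SD) over 14 arrays. Of the 63, 34 varied enough to be tested, among 11812 tested genes, and the other 29 are described by their range only. By their names 3 of the 63 (Slc7a6os, Slc36a1os and Slc6a19os) are transcripts opposite to a transporter gene, and several Slc6 members carry solutes other than amino acids.

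Amino acids enter and leave cells through solute carriers that differ in substrate and driving force. Several exchangers of the Slc7 family need the heavy chain encoded by Slc3a2 to reach the plasma membrane. Sodium-coupled carriers of the Slc1 and Slc38 families bring in glutamine and other neutral amino acids. Some Slc36 and Slc38 members sit in the lysosome, where amino acids are sensed by the kinase mTORC1. When amino acids run short the transcription factor ATF4 raises many of these genes. In the mammary gland the same carriers supply amino acids for milk protein.

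Experiment A held 3 MMP3 dishes and 3 control dishes, 1 of each at 50K, 100K and 250K cells in a 35 mm dish. There were 4 MMP3 and 4 control dishes in experiment B, with 25K as the added density. All 14 dishes held the same cell line in DMEM with 2% fetal calf serum for 3 days, and each was measured on 1 Affymetrix mouse array. The sources used here do not give the dose of MMP-3 or what the control dishes received. Values are relative log2 expression, centred so that each probe set has a median of 0 over the 14 arrays. They compare arrays and give no absolute level, so whether a transporter or a defining marker is expressed at all could not be read from them. In RNA from a whole dish, fewer cells of a kind and less RNA per cell cannot be told apart.

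The labels of experiment B did not sort the arrays as those of experiment A did. Ifit1, an interferon-induced gene, lay between 2.83 and 4.21 with MMP3 and between -2.98 and -2.91 in controls of A, but in B it was low on MMP3 25K and 100K (-2.83 and -2.97) and high on control 50K and 250K (3.71 and 4.26). The array labelled MMP3 100K of B also had the widest spread of values, with an SD over named genes of 1.04 against 0.279 to 0.503 on the other 13. On it 15 of the 34 tested transporter genes lay farthest from 0. The share of all tested genes that did so was not counted. Measures of the RNA differed between agents in A. The Gapdh control probe sets had a 3′ minus 5′ difference of 0.04 to 0.17 with MMP3 and -0.03 to 0.03 in controls, and the 18S probe set lay at 0.88 to 1.07 with MMP3 and 0.72 to 0.81 in controls. In B both measures overlapped. The actin control probe sets had a 3′ minus 5′ difference of 0.65 on MMP3 100K of B, against -0.34 to 0.19 on the other 13 arrays, and lay at -2.51 to -1.82 there. The part of these measures in the results below was not tested.

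Promoters of Slc7a11, Slc1a4, Slc36a1 and Slc3a2 are shown for reference, from RefSeq on build GRCm38.p6. Each runs from 250 bases before 1 annotated start of the gene to 50 after it on the gene's own strand. Slc36a1 and Slc3a2 passed in experiment A, and Slc1a4 and Slc7a11 missed the threshold in each main fit. For Slc7a11, Slc3a2 and Slc36a1 that start lies inside the gene's annotated span, so other starts of these genes are not shown. Capitals mark 2 motifs, searched on both strands. TGATGNAA is the core of the element that ATF4 binds with C/EBP partners, which is shown because the ATF4 pathway genes are described with the transporters, and CACGTG is the E-box bound by the lysosomal regulators TFEB and TFE3 among others. The 2 motifs share no overlapping match in these windows. Slc7a11 (chr3:50443564-50443863, minus strand) held TGATGNAA at 66 and, in reverse, at 47 bases before the start. Slc1a4 (chr11:20332664-20332963, minus strand) held it in reverse at 4 bases before the start. Slc36a1 (chr11:55204090-55204389, plus strand) held CACGTG at 31 and 3 bases before the start, and the Slc3a2 window (chr19:8713848-8714147, minus strand) had no match to either.
Slc7a11: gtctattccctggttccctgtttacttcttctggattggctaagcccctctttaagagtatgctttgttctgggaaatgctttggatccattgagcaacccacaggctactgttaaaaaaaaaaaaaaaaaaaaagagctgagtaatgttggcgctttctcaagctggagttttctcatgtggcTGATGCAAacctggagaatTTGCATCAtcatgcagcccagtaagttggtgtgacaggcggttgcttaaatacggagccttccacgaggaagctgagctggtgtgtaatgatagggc
Slc1a4: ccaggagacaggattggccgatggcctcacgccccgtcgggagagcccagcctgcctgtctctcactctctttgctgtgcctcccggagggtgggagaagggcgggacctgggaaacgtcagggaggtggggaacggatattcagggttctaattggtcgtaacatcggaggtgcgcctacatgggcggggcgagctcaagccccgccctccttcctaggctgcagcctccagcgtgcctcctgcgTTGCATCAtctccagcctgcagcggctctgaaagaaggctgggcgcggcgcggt
Slc36a1: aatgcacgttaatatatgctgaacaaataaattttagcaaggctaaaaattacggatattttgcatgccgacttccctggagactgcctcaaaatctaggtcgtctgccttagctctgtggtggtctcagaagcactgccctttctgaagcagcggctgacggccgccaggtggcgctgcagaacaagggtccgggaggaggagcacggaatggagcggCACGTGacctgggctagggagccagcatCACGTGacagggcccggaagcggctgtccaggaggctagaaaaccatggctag
Slc3a2: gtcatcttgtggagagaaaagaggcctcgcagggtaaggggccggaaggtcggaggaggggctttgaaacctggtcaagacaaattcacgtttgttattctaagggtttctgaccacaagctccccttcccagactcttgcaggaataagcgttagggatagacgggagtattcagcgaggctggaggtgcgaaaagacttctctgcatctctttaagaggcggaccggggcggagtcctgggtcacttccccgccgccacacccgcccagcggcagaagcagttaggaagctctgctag
Over all 32851 promoter windows of this length, 3.97% held TGATGNAA and 7.15% held CACGTG. The 26 tested members with an entry had 32 windows. TGATGNAA was in 2 of these 32, of Slc1a4 and Slc7a11, and CACGTG in 3, of Slc36a1, Slc38a7 and Slc43a1. These matches are descriptions of letters and not binding sites.

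The first comparison asked how MMP3 changed the transporters in experiment A. The heterodimer of Slc7a5 and Slc3a2, which imports leucine and other large neutral amino acids, fell in both its subunits, to 2.72-fold and 1.82-fold lower expression with MMP3. The glycine carrier Slc6a9 fell as well, as did Slc6a2, a carrier of noradrenaline. Slc36a1, a proton-coupled carrier of small amino acids that exports them from lysosomes, and Slc38a10, of the Slc38 family, rose. In all, 6 of 34 tested members passed limma at adjusted p under 0.05, 2 higher and 4 lower, which is 17.6% against 25.1% of all tested genes. The share of called members was not above the background. The median change was -0.04 over the members and -0.02 over all genes. At an unadjusted p under 0.05 there were 13 members and 41.6% of all genes. Only 2 residual degrees of freedom stood behind this fit. When 1 of the 6 arrays was dropped, whichever it was, no gene of the 11812 passed with limma. In those fits 7 to 13 members had an unadjusted p under 0.05, a level not counted there over all genes.

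**Figure D1:**
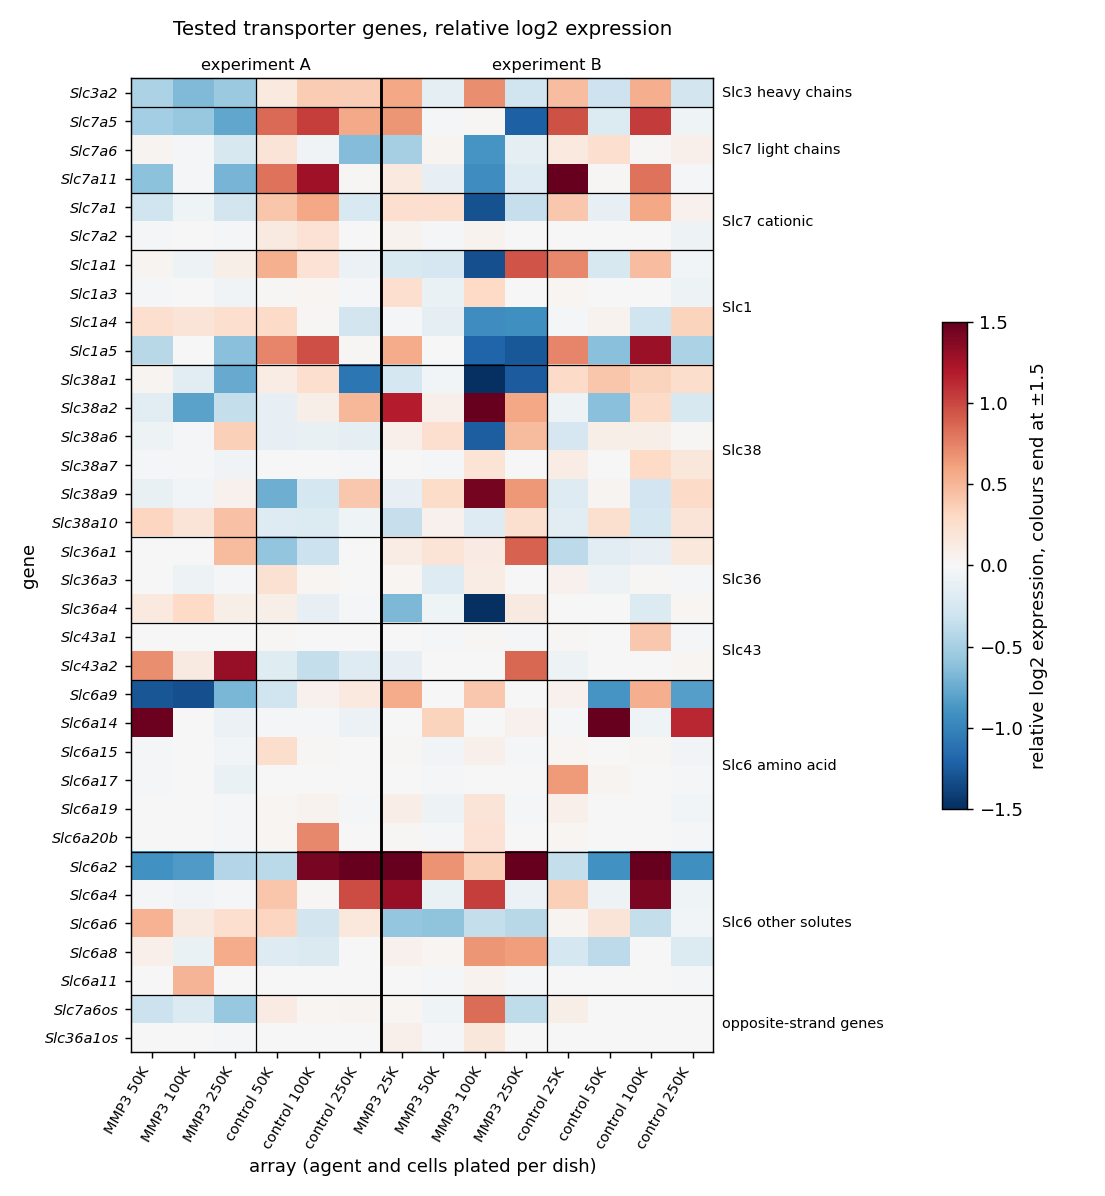
Relative log2 expression of the 34 tested transporter genes (down the page, by family) on each of the 14 arrays (across, MMP3 left of control in each experiment). Colours end at ±1.5. In experiment A the upper blocks are mostly blue with MMP3 and red in controls for Slc3a2, Slc7a5 and Slc7a11, and in experiment B the same genes do not divide by label.

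Slc7a5 (chr8:121881146-121907686, GRCm38.p6) encodes the light chain LAT1. It stood at -0.51, -0.57 and -0.78 on the MMP3 arrays of A at 50K, 100K and 250K, against 0.85, 1.04 and 0.57 on the matched controls. The groups were far apart at every density, and the change was -1.44 (standard error (SE) 0.12, adjusted p = 0.0158, limma). Slc3a2 (chr19:8706882-8723369), the CD98 heavy chain that several Slc7 light chains pair with, stood at -0.48, -0.67 and -0.56 with MMP3, against 0.14, 0.38 and 0.37 in controls. It too had no overlap and little spread within either agent, with a change of -0.87 (SE 0.09, adjusted p = 0.0189, limma). Both genes passed in each alternative processing other than those that left out an array. Each is measured by 1 probe set past the filter.

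Slc7a11, the cystine and glutamate exchanger xCT that also pairs with Slc3a2 and feeds glutathione synthesis, stood at -0.62, -0.01 and -0.70 with MMP3 in A, against 0.82, 1.27 and 0.01 in controls. The groups did not overlap, although MMP3 100K and control 250K were nearly level, and the change of -1.15 (SE 0.37) missed the threshold (adjusted p = 0.115, limma). It passed with a stricter filter on SD (adjusted p = 0.0434) and with the matched dishes as a block (adjusted p = 0.0455, limma). Slc7a6, which exchanges cationic for neutral amino acids, differed by 0.10 (SE 0.07). The arginine and lysine carrier Slc7a1 differed by -0.47 (SE 0.19, adjusted p = 0.165, limma), lower with MMP3 in 3 of 3 pairs of dishes.

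No carrier of the Slc1 family passed in A. Slc1a5 (ASCT2, the main sodium-dependent glutamine exchanger of proliferating cells) stood at -0.42, 0.01 and -0.63 with MMP3, against 0.73, 0.96 and 0.01 in controls. The highest MMP3 array, at 100K, was just below the lowest control, at 250K, and the change was -0.91 (SE 0.28, adjusted p = 0.0999, limma). It passed with the stricter filter and with the matched dishes as a block (adjusted p = 0.0387 in each, limma), and its other probe set differed by -0.80. Slc1a4 (ASCT1, for alanine, serine and cysteine) differed by 0.22 (SE 0.05, adjusted p = 0.0631, limma), and its other probe sets differed by 0.38 and -0.03. The glutamate carriers Slc1a1 and Slc1a3 differed by -0.20 and -0.03 (adjusted p = 0.135 and 0.678, limma).

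**Figure D2:**
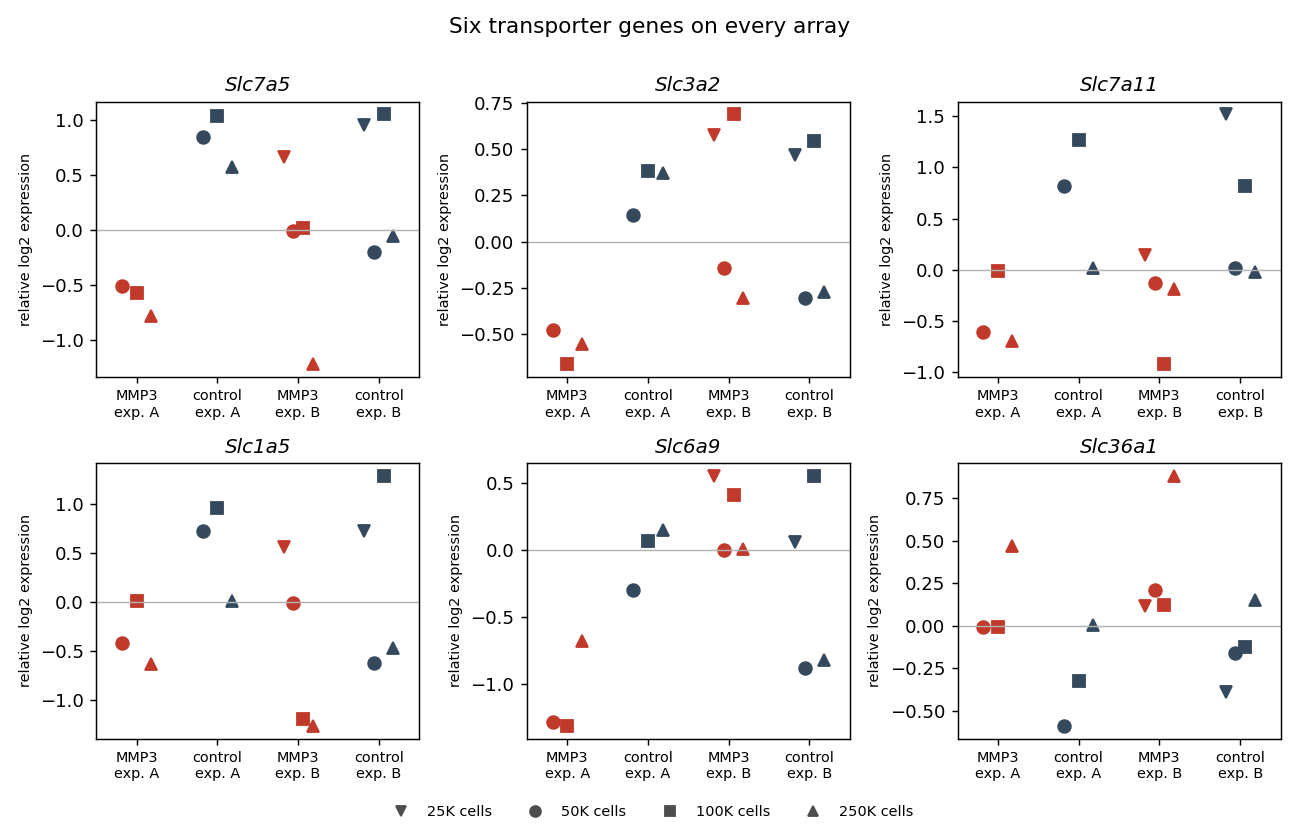
Relative log2 expression of Slc7a5, Slc3a2, Slc7a11, Slc1a5, Slc6a9 and Slc36a1 on every array (points), by agent and experiment, with the number of cells plated given by the symbol. MMP3 arrays of A lie wholly below controls for Slc7a5, Slc3a2 and Slc6a9. They also do for Slc7a11 and Slc1a5, where the highest MMP3 array is nearly level with the lowest control. In experiment B the agents overlap for all of these genes.

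Among sodium-coupled Slc38 carriers no member fell past the threshold. Slc38a2 (SNAT2, known to be induced when amino acids are scarce) stood at -0.17, -0.81 and -0.35 with MMP3 in A, against -0.13, 0.08 and 0.50 in controls. The difference was small at 50K and larger at the other densities, and the change of -0.59 (SE 0.21) did not pass (adjusted p = 0.132, limma), while the mean of its probe sets did (-0.58, adjusted p = 0.0394, limma). Slc38a1 (SNAT1) differed by -0.05 (SE 0.25) and was lowest at 250K with either agent. Slc38a9, a lysosomal arginine sensor of mTORC1, differed by 0.17 (SE 0.05, adjusted p = 0.0918, limma), and passed without the filter (adjusted p = 0.0369, limma). Slc38a10 stood at 0.32, 0.20 and 0.44 with MMP3, against -0.19, -0.20 and -0.07 in controls, and rose by 0.47 (SE 0.08, adjusted p = 0.0374, limma). Its groups did not overlap, but 2 of its 6 other probe sets, 1 of them past the filter, had the opposite sign, and the mean over its probe sets rose by only 0.17, which did not pass (adjusted p = 0.1, limma).

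Of the Slc36 and Slc43 families, Slc36a1 (chr11:55204322-55236330) stood at -0.01, 0.00 and 0.47 with MMP3 in A, against -0.59, -0.32 and 0.00 in controls. At each density MMP3 was above its control, while MMP3 50K and 100K were level with control 250K. It rose by 0.46 (SE 0.09, adjusted p = 0.0444, limma), but lost the call without the filter (adjusted p = 0.0972), with robust eBayes (adjusted p = 0.0521) or with density centred on the mean of all 14 arrays (adjusted p = 0.0512, limma). Slc43a2 (LAT4, a facilitated carrier of branched-chain amino acids) stood at 0.70, 0.14 and 1.30 with MMP3, against -0.18, -0.36 and -0.20 in controls. All MMP3 arrays were above all controls, and the change of 0.96 (SE 0.31) did not pass (adjusted p = 0.112, limma). It passed with the stricter filter (adjusted p = 0.0439) and as the mean of its probe sets (0.55, adjusted p = 0.0481, limma). Slc43a1 (LAT3) hardly varied, with a change of -0.01 (SE 0.05).

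In the Slc6 family, Slc6a9 (GlyT1, a sodium- and chloride-coupled glycine carrier) stood at -1.29, -1.32 and -0.68 with MMP3, against -0.30, 0.06 and 0.15 in controls. The groups did not overlap and it fell by 1.07 on the log2 scale (SE 0.13, adjusted p = 0.0226, limma), or by 0.64 as the mean of its probe sets. Without the filter Slc6a9 did not pass (adjusted p = 0.0627, limma). Slc6a2 stood at -0.91, -0.85 and -0.44 with MMP3, against -0.41, 1.42 and 3.77 in controls, so that the difference was small at 50K and widened with density. Its change was -2.33 (SE 0.07, adjusted p = 0.0122, limma) at the mean density. Without the product of agent and density it did not pass (adjusted p = 0.0939, limma), and its other probe sets differed by only -0.09 and -0.25. The taurine carrier Slc6a6 differed by 0.23 (SE 0.22) and the broad neutral and cationic carrier Slc6a14 by 0.50 (SE 0.29). Of the MMP3 arrays of A only the one at 50K was high for Slc6a14, at 1.48.

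The direction of small differences in A was counted over all members. In 15 of the 34 (44.1%) all 3 MMP3 arrays lay below all 3 controls, against 23.3% of all tested genes. Of these 15, 9 had a change of -0.43 to -2.33 (Slc7a5, Slc3a2, Slc7a11, Slc1a5, Slc38a2, Slc6a2, the serotonin carrier Slc6a4, Slc6a9 and Slc7a6os), and 6 one of only -0.01 to -0.13. In 4 of the 34 (11.8%; Slc36a4, Slc38a6, Slc38a10 and Slc43a2) all MMP3 arrays lay above all controls, against 19.5% of all genes. The median over all probe sets was also lower on the MMP3 arrays of A, at -0.0095 to -0.0014, against 0.0009 to 0.0158 on the controls. The part of this offset in the counts was not tested.

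**Figure D3:**
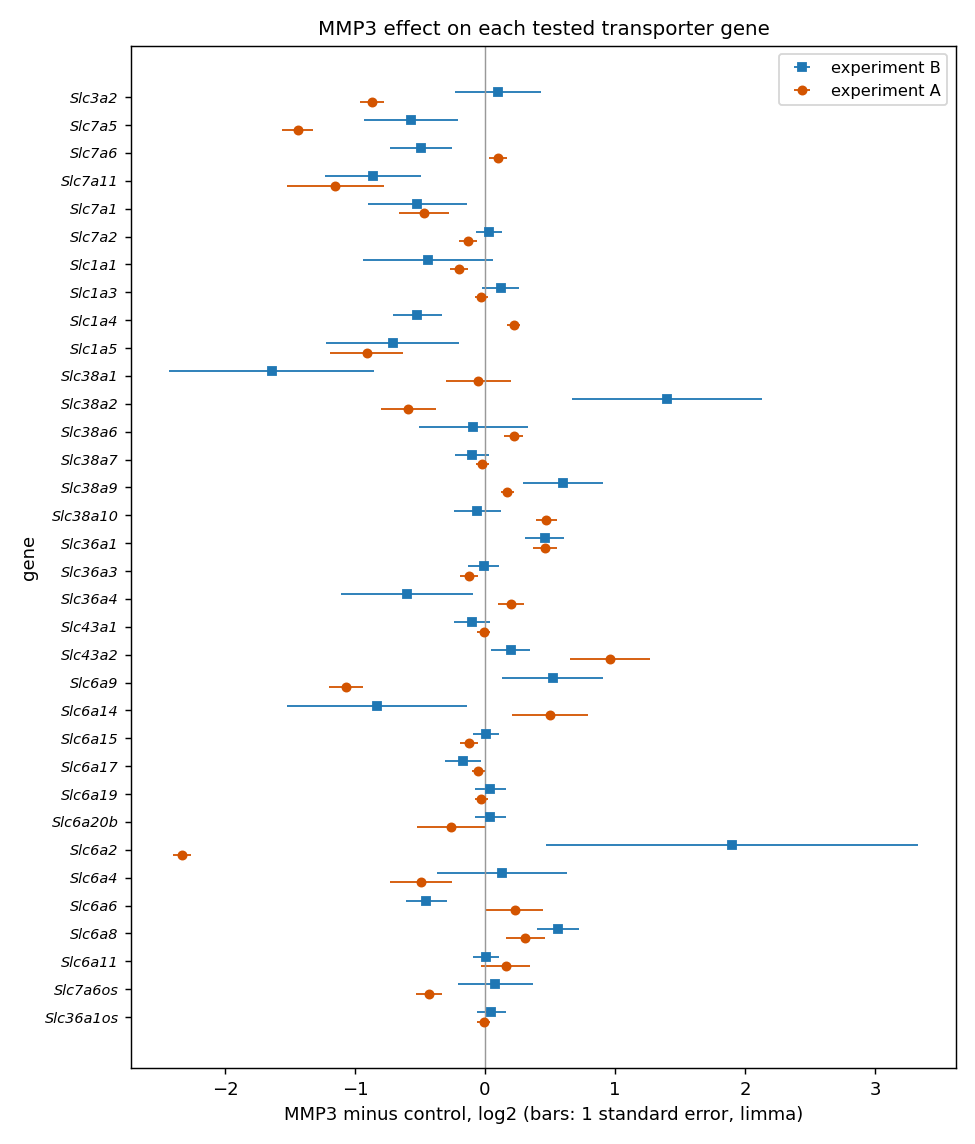
MMP3 minus control on the log2 scale (across) for each of the 34 tested transporter genes, with bars of 1 standard error from limma. Squares are experiment B and circles experiment A. Bars are wider in B for most genes, Slc36a1 has nearly the same value in both experiments (0.46), and Slc3a2 lies at 0.10 in B and -0.87 in A.

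Genes of pathways around the transporters were counted in A, in lists written with earlier results of these data known. Of 18 tested genes of ATF4 and the integrated stress response, 10 fell and 4 rose, with a median change of -0.87. The pseudokinase Trib3 (-2.17), the lipoprotein receptor Vldlr (-1.94), the transcription factor Ddit3 (-1.51) and the translation inhibitor Eif4ebp1 (-1.35) had the largest falls, and Atf4 itself fell by 0.78. The 4 that rose were the regulator Nupr1 (1.19), the stress kinase Eif2ak3 (0.58), Ppp1r15a, of the phosphatase that ends the stress signal (0.55), and Atf3 (0.48). Of 18 tested genes of amino acid and one-carbon synthesis 10 fell and none rose, with a median of -0.87, among them the folate enzyme Aldh1l2 (-3.05), the branched-chain aminotransferase Bcat1 (-2.58), the transsulfuration enzyme Cbs (-1.93) and the alanine aminotransferase Gpt2 (-1.80). Asparagine synthetase, Asns, fell by 1.14. Of 18 cytosolic aminoacyl-tRNA synthetase genes 7 fell and none rose, with a median of -0.39, led by Eprs (-0.85), Aars (-0.84), Gars (-0.83) and the serine and cysteine enzymes Sars and Cars (-0.67 each). The adjusted p of these named genes was 0.0122 to 0.0448 with limma, where 25.1% of all genes were called.

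Lists for amino acid sensing and for glutathione were counted in the same way, against the same 25.1% of all genes called in A. Of 24 genes of amino acid sensing by mTORC1, 1 rose and 2 fell, with a median of 0.01. The arginine sensor family member Castor2 rose by 1.25, and Sesn1 and Sesn3, of the sestrin family that restrains mTORC1, fell by 1.15 and 0.63 on the log2 scale (adjusted p of the 3 from 0.0251 to 0.0384, limma). Of 10 glutathione and NRF2 genes 3 fell and none rose, with a median of -0.34, namely Gclm, Gclc and Gsr, which make or recycle glutathione (-0.65, -0.36 and -0.32). Markers of other cell types did not pass in A. Of the macrophage markers 3 were tested (median -0.02), of the fibroblast markers 2 (median -0.46), of the adipocyte markers 1 and of the endothelial markers 0. Of 4 tested epithelial markers, the adhesion genes Epcam (1.18) and Cdh1 (0.89) rose and the basal keratin Krt5 fell by 1.03 on the log2 scale (adjusted p of the 3 from 0.0122 to 0.0136, limma). The part of these shifts in the transporter results was not tested.

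In experiment B, as labelled, no transporter passed. The count was 0 of 34 members with limma and 0.0% of all tested genes, with 4 members and 11.6% of all genes at an unadjusted p under 0.05. The 5 members with the smallest p were the creatine carrier Slc6a8 (0.56, SE 0.16, adjusted p = 0.334), Slc36a1 (0.46, SE 0.15, adjusted p = 0.368), Slc6a6 (-0.45, SE 0.16, adjusted p = 0.385), Slc1a4 (-0.52, SE 0.19, adjusted p = 0.416) and Slc7a11 (-0.86, SE 0.37, adjusted p = 0.462), all with limma. In 1 member, Slc38a1, all 4 MMP3 arrays lay below all 4 controls, against 5.39% of all genes, and in 1, Slc6a8, all lay above, against 5.2%. Neither count stands out from its background.

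Slc7a5 stood at 0.67, -0.01, 0.01 and -1.22 on the MMP3 arrays of B from 25K to 250K, against 0.95, -0.20, 1.05 and -0.06 on the controls. It was lower with MMP3 in 3 of 4 pairs, with wide overlap, and the change was -0.57 (SE 0.36, adjusted p = 0.582, limma). Slc3a2 stood at 0.58, -0.14, 0.69 and -0.30 with MMP3, against 0.47, -0.31, 0.54 and -0.27 in controls. Each MMP3 array lay within 0.16 of its control, and the change was 0.10 (SE 0.33, adjusted p = 0.91, limma). The arrays of both experiments on which Slc3a2 was below 0 were the same 7 on which Ifit1 was above 0, with either label in B. Slc7a5 was below 0 on the same 7 arrays, and so was the median over all probe sets. How many of all tested genes divided in this way was not counted.

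Slc1a5 in B stood at 0.56, -0.01, -1.20 and -1.27 with MMP3, against 0.73, -0.63, 1.29 and -0.47 in controls. It was lower in 3 of 4 pairs, and most at 100K, with a change of -0.71 (SE 0.51). Slc7a11 stood at 0.14, -0.13, -0.93 and -0.19 with MMP3, against 1.52, 0.01, 0.82 and -0.03 in controls, and was lower at each density. The gap was wide at 25K and 100K and slight at 50K and 250K. The other probe set of Slc7a11 was higher with MMP3 at 50K and at 100K (1.15 against 0.57 at 100K). It was lower at 25K and 250K, with a mean difference of -0.16 in B. Slc6a9 was not lower with MMP3 in B, at 0.55, 0.00, 0.41 and 0.00 with MMP3 against 0.06, -0.88, 0.55 and -0.82 in controls. Its change was 0.52 (SE 0.39, adjusted p = 0.638, limma).

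Several members were extreme on the array labelled MMP3 100K of B. Slc38a1 stood at -0.26, -0.04, -3.70 and -1.25 with MMP3, against 0.28, 0.41, 0.34 and 0.26 in controls, so that no MMP3 array reached a control. The change was -1.64 (SE 0.79, adjusted p = 0.5, limma), and -0.87 (SE 0.17, adjusted p = 0.173, limma) without that array. Its other probe set was lower with MMP3 in 7 of 7 pairs over both experiments, with mean differences of -0.54 in B and -0.26 in A. Slc38a2 moved the other way on the same array, at 1.18, 0.07, 3.13 and 0.57 with MMP3, against -0.07, -0.62, 0.28 and -0.24 in controls. MMP3 was higher at each density, and the change was 1.40 (SE 0.73, adjusted p = 0.533, limma), or 0.76 (SE 0.36) without that array. Slc38a9 was also highest there, at 1.43. It differed by 0.60 (SE 0.31) with that array and 0.33 (SE 0.15) without it. Other probe sets of Slc38a9 lay from -0.84 to 0.87 on that array, and those of Slc38a2 at 1.23 and -0.97.

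Some members were high on single arrays that do not share a label. Slc6a14 stood at 0.00, 0.33, 0.00 and 0.07 with MMP3 in B, against -0.01, 2.69, -0.07 and 1.13 in controls. Its high arrays were therefore MMP3 50K in A and control 50K and 250K in B. Slc6a2 stood at 3.52, 0.68, 0.36 and 4.05 with MMP3 in B, against -0.36, -0.91, 3.17 and -0.92 in controls, and its change of 1.90 (SE 1.43) had the opposite sign to that in A. Slc1a1 and Slc7a1 differed by -0.44 (SE 0.50) and -0.52 (SE 0.38) in B, and Slc1a3 and Slc43a1 by 0.12 (SE 0.14) and -0.10 (SE 0.14).

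The difference of the MMP3 effect between experiments B and A was tested on the 12 arrays of the densities they share. No member and 0.0% of all genes passed with limma, while 6 members and 18.2% of all genes had an unadjusted p under 0.05. The smallest p was that of Slc6a9, whose effect was 1.59 higher in B than in A (SE 0.47, adjusted p = 0.239, limma). Slc38a10 differed by -0.49, Slc1a4 by -0.91, Slc3a2 by 0.96 (SE 0.34) and Slc6a6 by -0.62, at adjusted p of 0.239 to 0.25 with limma. The pathway lists had 0 called members in B, and their medians there were 0.19 for ATF4 and the stress response, -0.22 for amino acid synthesis, -0.24 for synthetases, 0.32 for mTORC1 sensing and -0.02 for glutathione.

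Over all 14 arrays, with the experiment fitted as a block, Slc36a1 was the 1 member of 34 (2.94%) that passed, against 2.75% of all tested genes. It stood at 0.12, 0.21, 0.13 and 0.88 with MMP3 in B from 25K to 250K, against -0.39, -0.16, -0.12 and 0.15 in controls. MMP3 was above the matched control in 7 of 7 pairs over both experiments, by 0.25 to 0.73, and Slc36a1 rose by 0.46 (SE 0.09, adjusted p = 0.0317, limma), a 1.37-fold rise. With 1 array left out at a time the rise was 0.41 to 0.51 and its adjusted p 0.00991 to 0.0907. It passed without MMP3 100K or control 250K of A, or without MMP3 100K or control 50K of B, and not in the other 10 cases. With the matched dishes as a block its adjusted p was 0.07 (limma).

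The next members by p were Slc6a8 (0.45, SE 0.11, adjusted p = 0.0557, limma), Slc7a11 (-0.98, SE 0.25, adjusted p = 0.0635, limma), Slc7a5 (-0.95, SE 0.25, adjusted p = 0.0669, limma) and Slc43a2 (0.52, SE 0.17, adjusted p = 0.125, limma). Slc6a8 imports creatine. It stood at 0.08, -0.10 and 0.56 with MMP3 in A against -0.19, -0.21 and 0.00 in controls, and at 0.07, 0.03, 0.66 and 0.63 with MMP3 in B against -0.27, -0.39, 0.00 and -0.20 in controls. Like Slc36a1 it was higher with MMP3 in 7 of 7 pairs, as were 4.34% of all tested genes, although its other probe set was higher in only 4 of 7. Slc7a11 and the lysosomal glutamine carrier Slc38a7 were lower in 7 of 7 pairs, as were 3.99% of all genes. The mean differences of Slc38a7 were only -0.10 in B and -0.02 in A. The other probe set of Slc7a11 was lower in 5 of 7.

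With that same MMP3 100K array of B left out, 6 of 34 members (17.6%) passed over both experiments, against 10.7% of all tested genes. Slc36a1 (0.51), Slc6a8 (0.40), Slc43a2 (0.60) and Slc38a6 (0.26) rose, and Slc7a5 (-1.03) and Slc7a6os (-0.29) fell, at adjusted p of 0.00991 to 0.04 with limma. On the array left out, Slc38a6 stood at -1.23 and Slc7a6os at 0.84, against the direction of these calls. Over all 14 arrays they differed by only 0.04 and -0.13 (adjusted p = 0.966 and 0.785, limma). The pathway lists were also counted over all 14 arrays, where 2.75% of all tested genes passed. Of 18 tested genes of amino acid synthesis 3 fell, namely Bcat1 (-2.39), Shmt2, of serine and folate metabolism (-0.83), and Psph, of serine synthesis (-0.77). Of 18 tested synthetases 2 fell (Cars, -0.43, and Tars, -0.38). Of 18 tested genes of ATF4 and the stress response 1 rose, the stress-induced regulator Nupr1 (1.04). None passed in the lists for mTORC1 sensing (24 tested) and glutathione (10 tested).

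**Figure D4:**
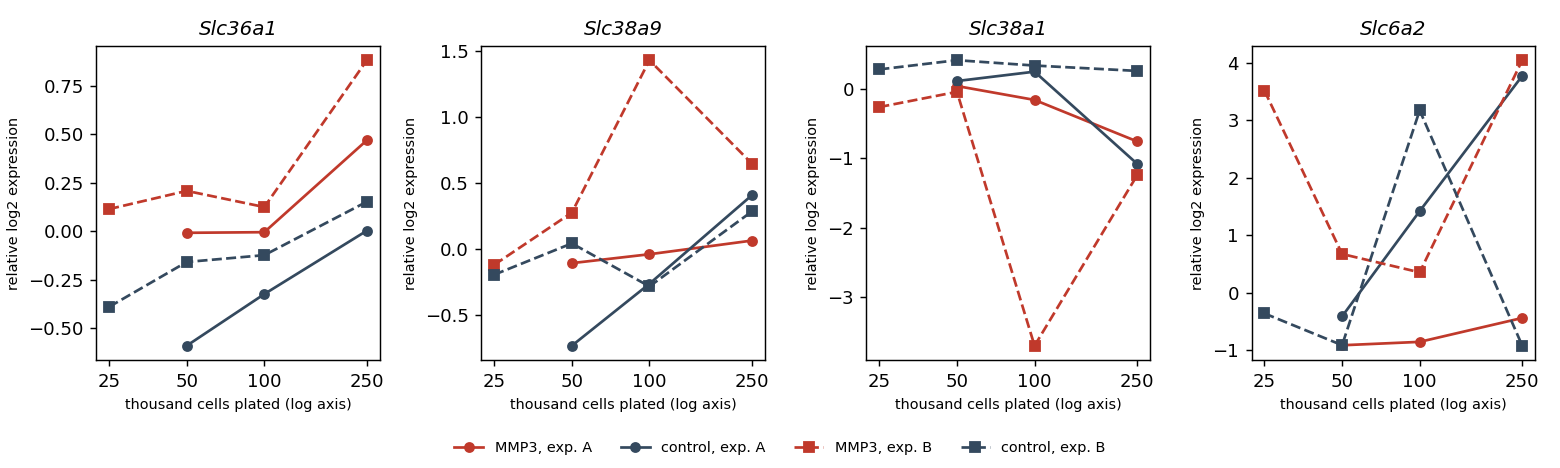
Relative log2 expression of Slc36a1, Slc38a9, Slc38a1 and Slc6a2 (vertical) by the number of cells plated (25K to 250K, log axis), with MMP3 in red and control in blue, experiment A as solid lines with circles and experiment B as dashed lines with squares. Slc36a1 is highest at 250K in each of the 4 series, and Slc38a1 lies at -3.70 on 1 MMP3 array of B.

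Plating density was compared as the slope per doubling of cells plated. No member passed in A, in B or over both experiments, and 0.0% of all genes passed in each of the 3 fits with limma. At an unadjusted p under 0.05 there were 8 members and 29.7% of all genes in A, 2 members and 3.98% in B, and 5 members and 11.5% over both. Slc36a1 had the smallest p of the members over both experiments, with a slope of 0.20 (SE 0.04, unadjusted p = 0.000366, adjusted p = 0.133, limma), and its highest array was at 250K with either agent in either experiment. It was followed by Slc6a8 (0.14, adjusted p = 0.304), Slc7a5 (-0.28, adjusted p = 0.348), Slc38a9 (0.23, adjusted p = 0.362) and Slc1a5 (-0.34, adjusted p = 0.386), all with limma.

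Within A the smallest p were those of Slc6a2 (slope 1.01, SE 0.04), Slc38a9 (0.28, SE 0.03) and Slc7a6 (-0.25, SE 0.04), each at adjusted p = 0.105 with limma, then Slc36a1 (0.23, SE 0.05, adjusted p = 0.109, limma) and Slc1a4 (-0.12, SE 0.03, adjusted p = 0.12, limma). From 50K to 250K, Slc38a9 stood at -0.11, -0.04 and 0.06 with MMP3 in A, against -0.74, -0.27 and 0.41 in controls. It was nearly flat with MMP3 and higher at each density step in the controls. Within B the 5 were Slc36a1 (0.18, SE 0.06), Slc43a2 (0.15, SE 0.06), Slc7a5 (-0.35, SE 0.15), Slc6a8 (0.13, SE 0.06) and Slc1a5 (-0.39, SE 0.21), each at an adjusted p of 1 with limma. The product of agent and density, which asks whether the slope differed between agents, passed for no member and for 0.0% of all genes with limma, with 1 member (Slc43a2, 0.33, SE 0.14) and 1.93% of all genes at an unadjusted p under 0.05.

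The 29 untested members stayed between -0.12 and 0.10 on every array, with SDs of 0.011 to 0.042. Among them was Slc7a8 (LAT2, another light chain of Slc3a2), with an SD of 0.030. Slc6a18 (0.038) and Slc38a4 (0.042) were the other members just under the filter of 0.049, and Slc36a1os (0.051), Slc6a19 (0.068) and Slc7a2 (0.073) the members just over it. Since the values are centred, a flat gene may be unexpressed or steadily expressed. The median SD of the tested members, 0.38, equalled that of all tested genes, and 12 of the 34 had an SD under 0.30. For 18 members another probe set passed the filter, and for 6 of these (Slc1a4, Slc6a6, Slc6a8, Slc7a6os, Slc38a9 and Slc38a10) at least 1 such probe set had the opposite sign in A.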

How the data were processed

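RNA of 14 dishes was hybridised to 1 Affymetrix array each. The authors deposited log2 values from RMA, a tool named without a version in the submitters' processing notes; for the log base and the centring, the sources used here say nothing. The log base is taken as that of RMA, and the centring was seen in the values, where the median of each of 45101 probe sets over the arrays is 0. Of 45037 probe sets that are not controls, 34945 had 1 symbol in the platform annotation, 932 several and 9160 none; only those with 1 were used, with symbols updated through the Entrez identifier for 34741. A gene was tested when the SD of its probe set reached the 40th percentile (0.049).

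The models were fitted in limma 3.58.1 under R 4.3.3 (lmFit, eBayes, Benjamini-Hochberg over 11812 genes, threshold 0.05), and tables were made with Python 3.11.15 and pandas 2.3.3. Each experiment was fitted with agent, centred log2 density and their product, and the fit to 14 arrays added experiment as a block, since the labels name the letters A and B as experiments. The difference between experiments was fitted on 12 arrays with density as a factor. The difference in the MMP3 effect is that at the mean log2 density. Nothing in the labels ties dishes more closely, so p-values cover only the variation among these dishes, which may be technical, and the number of arrays limits the precision. The fits were tested on simulated data. No scanner files were used here.

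The members, the always-named genes and the pathway and marker lists were chosen with earlier results of these data known. Named whatever their result were 16 members; added were up to 12 members with the largest rise and fall past the threshold in a comparison, or the 5 with the smallest p, and up to 4 passing genes with the largest change in each pathway list. Other members were named after their values were seen, where a count or an array singled them out. Alternatives were probe sets averaged per gene, no filter and a 60th percentile filter, arrays centred on their median, robust eBayes, no product, other blocks and each array left out.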

Additional observations from a re-analysis of the deposited data

Results flagged for a closer look

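Slc38a2 (SNAT2) differed between the experiments in the direction of its MMP3 difference. The mean of MMP3 minus control was 1.40 in experiment B, where MMP3 was higher in 4 of 4 pairs of dishes, and -0.59 in experiment A, where it was lower in 3 of 3. The fitted difference between experiments at the shared densities was 2.05 (SE 0.91), which did not pass over all genes (adjusted p = 0.28, limma). Another of its probe sets had the same pattern, at 0.63 in B and -0.97 in A, and the remaining one did not, at -0.29 in B and -0.18 in A. With MMP3 100K of B left out the difference in B was 0.76 (SE 0.36). As the mean of its probe sets Slc38a2 passed in A (-0.58, adjusted p = 0.0394, limma).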

How the results depend on the processing

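In experiment A 6 members passed, and 4 to 7 did with the mean of the probe sets, no filter, arrays centred on their median, robust eBayes, no product, or density centred on the mean of all 14 arrays, the last chosen after seeing the data. With the 60th percentile filter 10 passed, of 23 tested, while 3549 of 8857 passed over all genes. The added members were Slc1a5, Slc7a11, Slc43a2 and Slc7a6os. With the matched dishes as a replicate block 7 passed, Slc1a5 and Slc7a11 among them and Slc6a2 not (adjusted p = 0.169, limma). The count was 0 in each of the 6 fits that left out an array, for which 1 residual degree of freedom remained. Over all genes 2960 passed in A, 1271 without the filter and 1908 with the matched dishes as a block.

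Over both experiments 1 member passed, Slc36a1. The count was 0 with the 60th percentile filter, 0 with the matched dishes as a replicate block and 0 with no replicate block, 2 with arrays centred on their median (Slc6a8 added), and 0 to 6 with 1 array left out. Over all genes, 325 passed, 2 with the 60th percentile filter or the matched block, 0 with no block, 206 without the filter, and 0 to 1269 with 1 array left out. Without control 50K of B, Slc7a5 (-1.12) and Slc7a11 (-1.13) passed beside Slc36a1 (0.47). That control array was high for Ifit1, at 3.71, and its part in these calls was not tested. In density, 1 member passed in A with the 60th percentile filter, Slc6a2 (adjusted p = 0.0438, limma). The other comparisons gave 0 members in each alternative run. No called member changed sign. Signal over background was not known, which limits what can be said of flat genes.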
